A study of Mus musculus with 105 samples.

Results

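Mouse embryonic stem cell lines were compared to ask which transcripts differed when a Suz12 knockout line carried SUZ12 lacking its VEFS domain joined to the chromodomain of HP1a. The comparison covers 6 of the 105 samples of the series, 3 of the fusion line and 3 of the knockout line, and it was read across all genes. Both lines derive from E14Tg2a, a feeder-independent mouse embryonic stem cell line, and both carry the Suz12 knockout. The fusion line (called the HP1 fusion) additionally expresses Suz12 dVEFS, which the labels also call S12N, fused to the HP1a chromodomain. Neither line was treated, and the labels give no medium for either. Another 3 groups of 3 libraries each from the same dataset served as reference, namely wild type, the knockout with S12N and no chromodomain (called S12N), and the knockout with full-length Suz12. The labels state biological triplicates. Each construct is represented by its own line, so an effect of the construct and a difference between lines cannot be told apart. The labels do not give the residues or the promoter of the construct.

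PRC2 is the Polycomb complex that methylates histone H3 at lysine 27 and keeps developmental genes silent in embryonic stem cells. SUZ12 is its core scaffold, and the VEFS domain at the SUZ12 C terminus is the part that contacts EZH2 and EED and is needed for catalysis. HP1a, encoded by Cbx5, reads methylated lysine 9 of histone H3 through its chromodomain and is a structural protein of heterochromatin. Cells without PRC2 activity are known to express lineage genes at low levels, among them genes of the primitive endoderm, the extraembryonic lineage that lays down a laminin and collagen IV basement membrane. The p53 pathway is the transcriptional response that slows the cell cycle and triggers apoptosis after DNA damage.

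The deposited values are read counts per gene. The HP1 fusion libraries held 9667631, 10387162 and 11132739 counts and the knockout libraries 7040273, 18581501 and 5476658. Of 27179 identifiers, 14026 genes passed the filter on low counts. Levels are given as CPM, the usual library-size scaling of counts. Each ± after a log2 fold change is its standard error with n = 3 per group, and adjusted p-values are from edgeR's quasi-likelihood test with Benjamini-Hochberg adjustment over all genes tested. The embryonic stem cell markers Pou5f1, Nanog, Sox2, Zfp42, Esrrb, Klf4 and Dppa5a were all abundant in the HP1 fusion libraries, with Klf4 at 339 to 368 CPM and Dppa5a at 1063 to 1132 CPM. Replicate 3 of the HP1 fusion stood apart from the other two libraries of its line. A chi-square comparison of counts gave 6.04 and 5.31 per gene for its pairs with replicates 1 and 2, against 3.35 for replicates 1 and 2 with each other. In the knockout, replicate 2 gave 5.45 and 5.02 for its pairs with replicates 1 and 3, against 2.86 for replicates 1 and 3. This measure also rises with depth, and replicate 2 was by far the deepest knockout library. In the knockout a library that stands apart and a deeper one therefore cannot be told apart. Values without replicate 3 of the HP1 fusion are given where they bear on a result.

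Relative to the knockout, the HP1 fusion line showed many small differences and few large ones. At an adjusted p under 0.05, 1008 genes were higher (7.19% of those tested) and 835 were lower (5.95%). The median size of these 1843 changes was 0.34 on the log2 scale. Only 90 genes (0.642%) were higher and 24 (0.171%) lower by at least 2-fold. Against S12N, whose label differs by the chromodomain, 978 genes passed (6.97%), of which 597 were higher (4.26%) and 381 lower (2.72%). S12N itself had 108 genes higher than the knockout (0.77%) and 157 lower (1.12%). The total of 1843 depended on single libraries. It was 2132 without replicate 3 of the HP1 fusion and 1149 without replicate 1 of the HP1 fusion, of which 620 were higher and 529 lower, and 519 genes were lower without replicate 1 of the knockout. Against S12N it was 430 and 528 without replicates 1 and 2 of the HP1 fusion, 540 and 625 without replicates 1 and 2 of S12N, and 1492 without replicate 3 of the HP1 fusion.

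**Figure D1:**
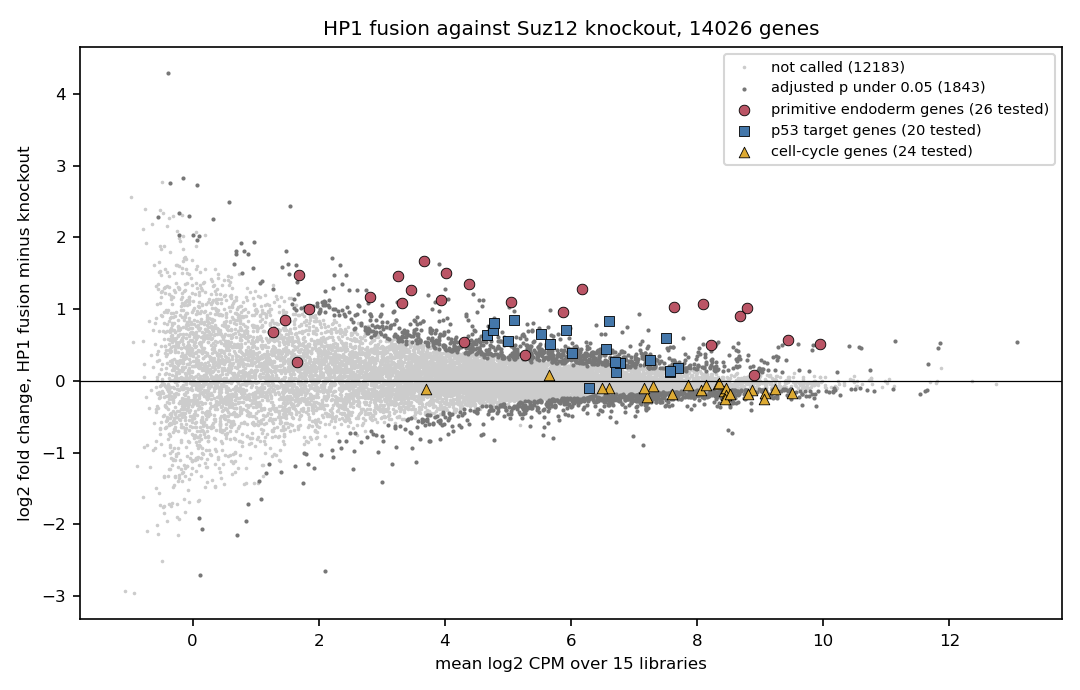
Log2 fold change (HP1 fusion minus knockout) against mean log2 CPM for 14026 genes, with called genes in dark grey and 3 gene lists in colour. Of the primitive endoderm genes (red circles) 22 of 26 were called higher and of the p53 targets (blue squares) 16 of 20, while 12 of 24 cell-cycle genes (yellow triangles) were called lower.

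The first check of the labels was Suz12, which lies on chromosome 11 from 79993106 to 80034123 (GRCm38, as are the coordinates of other genes). It measured 60.4, 56.2 and 66.98 CPM in the knockout, 96.01, 95.1 and 103 CPM in the HP1 fusion and 122, 124 and 115 CPM in S12N. Wild type had 285 to 309.6 CPM and the line with full-length Suz12 had 164 to 172 CPM. The 3 HP1 fusion libraries lay above every knockout library and below every S12N library. The difference was 0.70 ± 0.07 against the knockout (edgeR adjusted p = 5.51e-11) and -0.29 ± 0.06 against S12N (edgeR adjusted p = 0.00132). Counts per gene do not separate transcripts of the construct from those of the disrupted locus. Cbx5, from which the chromodomain comes, measured 524, 498 and 506 CPM in the HP1 fusion and 463, 442 and 446 CPM in the knockout. It rose by 0.18 ± 0.04 (edgeR adjusted p = 0.00362), whereas its difference from S12N was 0.05 ± 0.04 and did not pass the test (edgeR adjusted p = 0.53).

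The clearest group difference was in genes of the primitive endoderm, which were higher in the HP1 fusion line. Of 29 listed genes 26 passed the filter on low counts, 22 rose against the knockout and none fell, where 7.19% of all genes tested were higher. Their median log2 fold change was 1.02 against 0.00286 for all genes. Foxa2 (0.85 ± 0.40), Nid2 (0.09 ± 0.05) and Cited1 (0.26 ± 0.36) were among the tested genes that did not pass. Afp, Apoa1 and Ttr, genes of secreted proteins of mature visceral endoderm, were not tested and had at most 4 counts over the 3 HP1 fusion libraries and 0 over the knockout. In bulk RNA, more cells of a type and more RNA per cell cannot be told apart.

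Among the transcription factors that specify this lineage, Gata6 measured 32.4, 27.5 and 15.4 CPM in the HP1 fusion and 9.01, 10.6 and 11.5 CPM in the knockout. Gata4, its close relative, measured 78.2, 82.6 and 53.1 CPM against 36.3, 35.1 and 27.5 CPM. Sox17, a later endoderm factor, measured 22.8, 25.99 and 16.01 CPM against 6.33, 8.55 and 8.26 CPM. In all 3 genes every HP1 fusion library exceeded every knockout library, and replicate 3 was the lowest of the HP1 fusion. The log2 fold changes were 1.27 ± 0.20 for Gata6 (edgeR adjusted p = 6.6e-06), 1.09 ± 0.12 for Gata4 (2.69e-09) and 1.46 ± 0.22 for Sox17 (3.54e-06). Sox7, another SOX factor of the list, rose by 0.36 ± 0.10 (edgeR adjusted p = 0.0103).

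Cell surface and endocytic genes of the lineage rose with them. The receptor kinase gene Pdgfra, an early marker of the lineage, measured 22.9, 27.04 and 12.4 CPM against 10.4, 8.92 and 10.4 CPM in the knockout, a change of 1.08 ± 0.21 (edgeR adjusted p = 0.000266). Pth1r, the receptor for parathyroid hormone related protein that acts in parietal endoderm, measured 42.4, 30.3 and 24.2 CPM against 7.32, 10.4 and 12.7 CPM, a change of 1.67 ± 0.19 (edgeR adjusted p = 8.92e-09). Neither gene had overlapping libraries. Cubn, Lrp2, Amn and Dab2 encode the cubilin, megalin, amnionless and adaptor proteins of one endocytic apparatus, and they rose by 1.35 ± 0.17, 0.97 ± 0.12, 1.48 ± 0.37 and 1.13 ± 0.15 in that order. Thbd, the thrombomodulin gene, rose by 1.17 ± 0.22, and Srgn, which encodes the proteoglycan serglycin, rose by 1.51 ± 0.17.

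Basement membrane genes were among the abundant members. The laminin gene Lamb1, on chromosome 12 from 31265146 to 31329644, measured 597, 603 and 390.1 CPM against 249, 257 and 246 CPM in the knockout, a change of 1.08 ± 0.08 (edgeR adjusted p = 2.38e-14). Lama1, the gene of its partner chain, measured 925, 927 and 559.9 CPM against 406, 395 and 391 CPM, a change of 1.02 ± 0.08 (edgeR adjusted p = 2.04e-12). Lamc1, the third chain of the same trimer, rose by 0.51 ± 0.06. Serpinh1, which encodes the collagen chaperone HSP47, measured 198, 178 and 109.5 CPM against 63.5, 65.5 and 72.2 CPM and rose by 1.28 ± 0.11 (edgeR adjusted p = 1.24e-11). The collagen IV genes Col4a1 and Col4a2 rose by 0.91 ± 0.09 and 1.03 ± 0.10, with replicate 3 again lowest in both at 595 and 298 CPM. Apoe, a lipoprotein gene already abundant in the knockout at 462 to 501 CPM, rose by 0.57 ± 0.04 to 649.6 to 762 CPM.

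Col4a1 and Col4a2 are transcribed head to head from one region of chromosome 8, and their promoter windows share 78 bases. The Col4a2 window of 300 bases (RefSeq, GRCm38.p6, chr8:11312555-11312854, plus strand) is shown because the genes rose together, with the bases that also lie in the Col4a1 window (chr8:11312777-11313076, minus strand) in capitals.
Col4a2: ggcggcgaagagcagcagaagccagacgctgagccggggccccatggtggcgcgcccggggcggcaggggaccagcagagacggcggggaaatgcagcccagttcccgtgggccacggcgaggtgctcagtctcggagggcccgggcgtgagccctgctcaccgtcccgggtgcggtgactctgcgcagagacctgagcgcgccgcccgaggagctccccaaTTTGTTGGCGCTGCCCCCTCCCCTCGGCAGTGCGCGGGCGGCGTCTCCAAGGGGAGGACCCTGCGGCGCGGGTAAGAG
Promoter windows were matched for 15 of the 26 primitive endoderm genes tested, each from 250 bases before to 50 after an annotated start. The GATA core GATAA, searched on both strands, was present for 4 of the 15 genes (26.7%) and for 18.4% of all tested genes with a window. Some genes have several windows, and counted by window the shares were nearly equal. GATAA was in 16% of the 25 windows of these genes and in 15.8% of the 13712 windows of all tested genes. The SOX core ACAATGG was present for none of the 15 and for 2.52% of all.

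**Figure D2:**
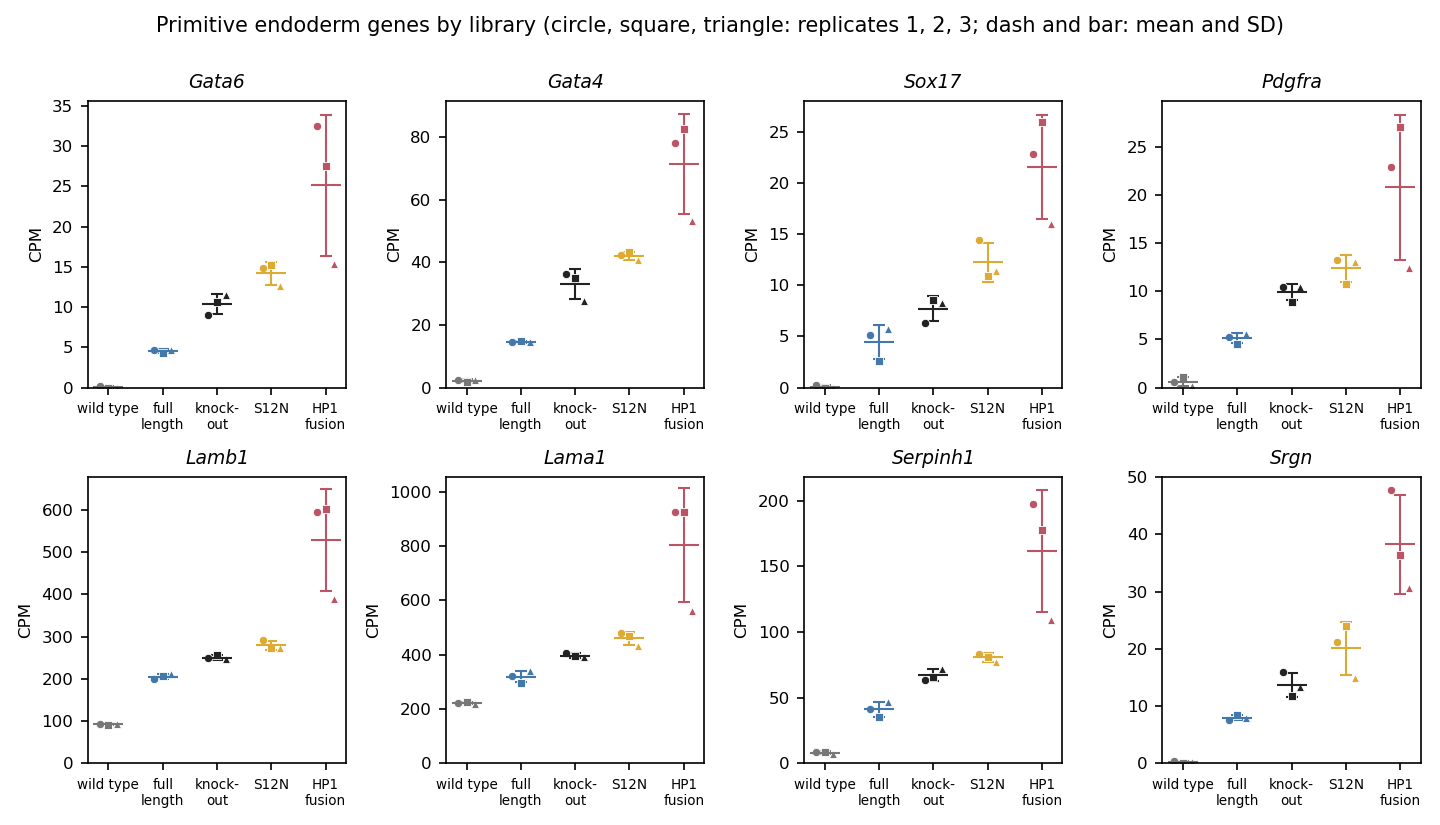
CPM of 8 primitive endoderm genes in the 15 libraries of the dataset, by line, with replicates 1, 2 and 3 as circle, square and triangle and the mean and SD (n = 3) as dash and bar. In all 8 genes the 3 HP1 fusion libraries lie above the 3 knockout libraries, and replicate 3 is the lowest HP1 fusion library.

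The size of the difference varied within the HP1 fusion line. Replicate 3 was the lowest of the 3 libraries in 21 of the 22 genes that rose, at a median of 65.3% of the mean of replicates 1 and 2 and a range from 48.5% to 97.1%. Summed over the list, the HP1 fusion libraries held 7136, 7087 and 4839 CPM, and the knockout libraries 3860.3 to 3913 CPM. Even the lowest HP1 fusion library was above the highest knockout library. Without replicate 3, 23 genes of the list were higher, and leaving out any other library of the 2 lines gave between 19 and 21.

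The primitive endoderm difference was also present against S12N. There 21 of the 26 genes were higher and none lower, where 4.26% of all genes were higher, and the median log2 fold change was 0.74. Gata6 measured 14.8, 15.2 and 12.6 CPM in S12N and Lamb1 292, 274 and 274 CPM. For Lamb1 the difference from S12N was 0.92 ± 0.08 (edgeR adjusted p = 2.68e-12), and for Gata6 it was 0.82 ± 0.18 (edgeR adjusted p = 0.00271). S12N against the knockout shares the knockout libraries with the first comparison. It had 3 of the 26 genes higher (0.77% of all genes) and a median of 0.23. Summed over the list, wild type held 2563 to 2639 CPM, and full-length Suz12 against the knockout had 22 lower (14.1% of all genes) with a median of -0.87. Wild type held almost no transcripts of several members, with Gata6 at 0.15, 0 and 0 CPM and Srgn at 0.45, 0 and 0.159 CPM. The HP1 fusion line had the highest levels of the 5 lines for Gata6, Gata4, Sox17, Pdgfra, Lamb1, Lama1, Serpinh1 and Srgn, although in replicate 3 Pdgfra, at 12.4 CPM, lay within the range of S12N (10.8 to 13.3 CPM). Apoe was an exception, with 751 to 780.3 CPM in wild type and 905 to 979 CPM with full-length Suz12.

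The series also holds a separate panel in which S12N was fused to SUV2 or to a version that the titles call dead. Columns of that panel were matched to its groups from their wording. There the active SUV2 fusion against its dead version had 21 of 26 primitive endoderm genes lower and none higher, where 12.8% of all genes were lower, with a median of -2.23. Gata6 differed by -3.08 ± 0.26 and Serpinh1 by -3.02 ± 0.28 in the panel. No inactive version of the HP1 fusion was analysed here, and the datasets were fitted apart, so the directions were not tested against each other. Of 483 tested genes at least 2-fold lower with the active SUV2 fusion, 78 (16.1%) rose and 11 (2.28%) fell in the HP1 fusion against the knockout, with a median of 0.39. These included 18 primitive endoderm genes, 16 of which rose. Without them, 62 of the rest rose (13.3%), against 7.19% of all genes. Of 95 tested genes lower with the active SD2 fusion, 2 rose (2.11%) and 5 fell (5.26%), against 7.19% and 5.95% of all genes.

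Genes activated by p53 were another group in which most tested members were higher. Of 21 listed genes 20 were tested, 16 rose and none fell, with a median log2 fold change of 0.48, where 7.19% of all genes were higher. Ccng1, which encodes cyclin G1 and lies on chromosome 11 from 40748552 to 40755309, measured 246, 258 and 234 CPM in the HP1 fusion and 161, 159 and 166 CPM in the knockout. Cdkn1a, the gene of the cyclin-dependent kinase inhibitor p21, measured 63.1, 54.6 and 44.1 CPM against 30.8, 29.4 and 29.3 CPM. The groups did not overlap in either gene. The changes were 0.60 ± 0.05 (edgeR adjusted p = 5.36e-12) and 0.85 ± 0.11 (edgeR adjusted p = 1.17e-07). Trp53inp1, which encodes a nuclear cofactor of p53, measured 131, 134 and 128 CPM against 78.1, 78.1 and 62.3 CPM, a change of 0.83 ± 0.07 (edgeR adjusted p = 9.23e-12). Eda2r, a death receptor gene on the X chromosome, measured 90.3, 91.3 and 88.8 CPM against 58.1, 51.2 and 57.5 CPM, a change of 0.71 ± 0.09 (edgeR adjusted p = 5.13e-08).

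Other members with known roles in the response moved the same way. Plk2 and Btg2, which restrain proliferation, rose by 0.80 ± 0.13 and 0.71 ± 0.12. Of the apoptosis genes, Bbc3 (PUMA) rose by 0.64 ± 0.12, Perp by 0.51 ± 0.09, Tnfrsf10b by 0.38 ± 0.09 and Bax by 0.18 ± 0.05. Mdm2, the ligase gene that limits p53, rose by 0.25 ± 0.07 (edgeR adjusted p = 0.0108). The 4 members that did not pass were Rps27l (0.13 ± 0.05), Gtse1 (0.12 ± 0.05), Aen (0.12 ± 0.07) and Ckap2 (-0.09 ± 0.08). Replicate 3 stood at a median of 96.5% of the mean of replicates 1 and 2 in the 16 genes that rose, and 15 of the list rose without it. Against S12N 13 of the 20 were higher (4.26% of all genes) and none lower, with a median of 0.35. The knockout against wild type had 6 of the 20 higher (22.2% of all genes) and 5 lower (19.6%), and full-length Suz12 against the knockout had 12 higher (12.3% of all genes) and 1 lower.

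The promoters of p53 targets that hold a p53 half-site are shown for 4 genes of the list that rose. A half-site is only part of the full sequence that p53 recognises. Windows were matched for 16 of the 20 genes tested. The half-site, searched on both strands, was present in the windows of 9 of the 16 genes (56.2%) and of 8.23% of all tested genes with a window. A match describes the letters only, and targets are in part known through such sites. Capitals mark the half-site in each window (RefSeq, GRCm38.p6, read along the gene's strand). The windows are chr11:40755237-40755536 on the minus strand for Ccng1, chr17:29090729-29091028 on the plus strand for Cdkn1a, chr10:117710709-117711008 on the minus strand for Mdm2 and chr7:45466849-45467148 on the minus strand for Bax.
Ccng1: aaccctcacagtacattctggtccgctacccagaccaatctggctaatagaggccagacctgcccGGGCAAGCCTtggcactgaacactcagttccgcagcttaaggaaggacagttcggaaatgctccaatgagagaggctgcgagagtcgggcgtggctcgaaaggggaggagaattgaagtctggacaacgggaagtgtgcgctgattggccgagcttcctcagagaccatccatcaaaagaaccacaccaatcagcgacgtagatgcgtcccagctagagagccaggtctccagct
Cdkn1a: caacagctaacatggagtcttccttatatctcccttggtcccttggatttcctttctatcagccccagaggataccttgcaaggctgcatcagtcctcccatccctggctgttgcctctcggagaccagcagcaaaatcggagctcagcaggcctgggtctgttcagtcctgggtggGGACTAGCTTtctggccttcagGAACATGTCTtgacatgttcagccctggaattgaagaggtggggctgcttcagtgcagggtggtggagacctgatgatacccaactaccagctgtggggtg
Mdm2: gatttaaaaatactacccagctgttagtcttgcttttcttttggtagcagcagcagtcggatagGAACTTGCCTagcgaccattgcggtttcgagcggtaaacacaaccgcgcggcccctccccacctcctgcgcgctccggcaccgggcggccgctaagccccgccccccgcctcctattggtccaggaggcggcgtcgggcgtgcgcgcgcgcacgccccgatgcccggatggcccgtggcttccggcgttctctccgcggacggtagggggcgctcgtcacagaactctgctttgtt
Bax: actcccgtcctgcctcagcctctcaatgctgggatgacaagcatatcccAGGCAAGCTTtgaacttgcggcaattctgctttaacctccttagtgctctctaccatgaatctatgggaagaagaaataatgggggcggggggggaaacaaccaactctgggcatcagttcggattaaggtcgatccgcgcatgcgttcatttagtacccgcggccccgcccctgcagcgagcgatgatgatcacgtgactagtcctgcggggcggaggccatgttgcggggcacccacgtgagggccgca
The match starts at position -185 from the start site in Ccng1, -186 in Mdm2 and -201 in Bax. Cdkn1a has 2 matches, at -73 and -51, both in the window shown. It has 2 windows, and the window of its other annotated start holds no match. Ei24, which rose by 0.29 ± 0.06, also holds a half-site in its window, as do Aen, Ckap2, Gtse1 and Rps27l, which did not pass.

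**Figure D3:**
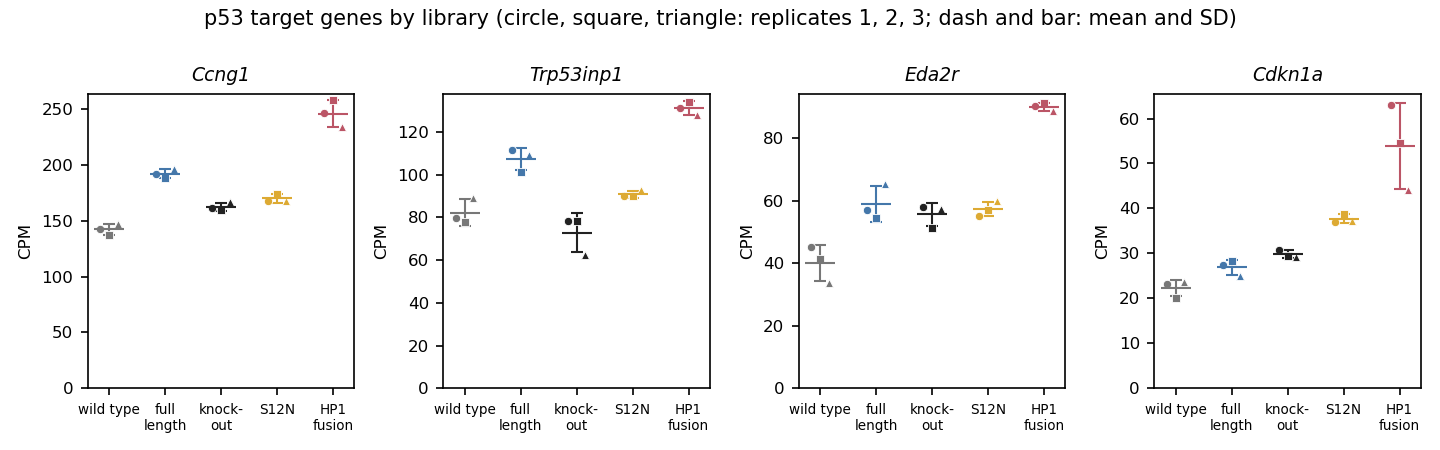
CPM of the 4 p53 target genes with the smallest p in the 15 libraries of the dataset, by line, with replicates 1, 2 and 3 as circle, square and triangle and the mean and SD (n = 3) as dash and bar. In each gene the 3 HP1 fusion libraries lie above all libraries of the 4 other lines.

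Cell-cycle genes were lower by small amounts. Of 24 genes, all tested, 12 fell and none rose (5.95% of all genes were lower), with a median of -0.12. The replication helicase gene Mcm7 measured 466, 466 and 469 CPM in the HP1 fusion and 552, 571 and 551 CPM in the knockout, a change of -0.26 ± 0.04 (edgeR adjusted p = 2.54e-06). Pcna, the replication clamp gene, measured 273, 294 and 282 CPM against 316, 339 and 363 CPM, a change of -0.26 ± 0.05. Neither gene had overlapping groups. Mcm2, Mcm3, Mcm4, Mcm5, Mcm6, Rrm2, Top2a, Bub1, Bub1b and Cdk1 made up the rest of those that fell, with log2 fold changes from -0.23 to -0.12. Mki67, Ccnb1 and Plk1 differed by -0.06 ± 0.06, -0.03 ± 0.04 and -0.06 ± 0.05 and did not pass. The count of 12 was 7 without replicate 1 of the HP1 fusion and 6 without replicate 1 of the knockout. Against S12N 9 were lower (2.72% of all genes) and none higher, with a median of -0.11.

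Pluripotency genes were lower on balance, also by small amounts. Of 24 tested, 12 fell (5.95% of all genes) and 1 rose (7.19%), with a median of -0.14. Nanog, a core regulator on chromosome 6 from 122707489 to 122714633, measured 342, 338 and 364 CPM in the HP1 fusion against 445, 445 and 454 CPM in the knockout, a change of -0.36 ± 0.04 (edgeR adjusted p = 1.88e-08). Pou5f1, which encodes OCT4, measured 724, 743 and 777 CPM against 869, 914 and 859 CPM, a change of -0.24 ± 0.04 (edgeR adjusted p = 1.55e-05). Both genes were lower in every HP1 fusion library than in any knockout library. Sox2 (-0.16 ± 0.04), Zfp42 (-0.20 ± 0.04), Klf4 (-0.18 ± 0.05) and Dppa3 (-0.76 ± 0.22) fell as well without overlap, and Klf5 (-0.23 ± 0.05) fell with overlapping groups. Fgf4, the growth factor gene, was the 1 member that rose, by 0.21 ± 0.05. Esrrb, Tfcp2l1 and Klf2 differed by -0.10 ± 0.04, -0.04 ± 0.04 and -0.03 ± 0.04 and did not pass. Against S12N 8 were lower (2.72% of all genes) and 2 higher (4.26%). Wild type held 323 to 337 CPM of Nanog and 1175 to 1230 CPM of Pou5f1. From wild type the HP1 fusion differed by 0.07 for Nanog (edgeR adjusted p = 0.17) and 0.04 for Zfp42 (edgeR adjusted p = 0.332). For Pou5f1 it differed by -0.69 (edgeR adjusted p = 9.69e-20). Of the 24, 5 were higher and 14 lower than in wild type, as were 3566 and 3226 of all 14026 genes.

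Among genes of the primed epiblast, the state that follows naive pluripotency, directions were mixed, with 4 of 14 higher (7.19% of all genes) and 3 lower (5.95%). The de novo DNA methyltransferase gene Dnmt3b, on chromosome 2 from 153649411 to 153687730, measured 268, 293 and 284 CPM against 475, 443 and 437 CPM in the knockout. It fell by 0.68 ± 0.05 (edgeR adjusted p = 2.65e-15) and was also lower than in S12N, where it measured 336, 365 and 334 CPM, with a difference of -0.29 ± 0.04 (edgeR adjusted p = 1.31e-05). The 3 lines did not overlap. Dnmt3l, a cofactor of DNMT3A and DNMT3B, fell (-0.21 ± 0.04), and so did Uhrf1, needed for maintenance methylation (-0.16 ± 0.04), a call lost without replicate 1 of either line. Of 12 genes that set or remove DNA methylation or set H3K36 methylation, these 3 fell (25%, against 5.95% of all genes) and none rose. Dnmt3a differed by 0.00 ± 0.08 and did not pass. Sfrp2, a secreted Wnt modulator, rose by 0.65 ± 0.10, and Sox4 by 0.55 ± 0.13.

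Several genes of the silencing complexes themselves were slightly lower. Of 13 genes of PRC2 subunits, Suz12 rose and 6 fell, where 5.95% of all genes were lower. Ezh2, the catalytic subunit, measured 184, 194 and 185 CPM against 220.0, 213 and 203 CPM and fell by 0.18 ± 0.05 (edgeR adjusted p = 0.0132), a call lost without replicate 1 of either line. Eed, the subunit that reads methylated lysine 27, measured 249, 244 and 275 CPM against 317, 305 and 322 CPM and fell by 0.30 ± 0.05 (edgeR adjusted p = 2.47e-05). The groups did not overlap in either gene. The accessory subunits Jarid2 (-0.24 ± 0.04), Aebp2 (-0.23 ± 0.06), Epop (-0.19 ± 0.04) and Mtf2 (-0.14 ± 0.05) fell as well. Of 20 genes of PRC1, the Polycomb complex that ubiquitinates histone H2A, 4 fell (5.95% of all genes) and none rose, among them Phc1 (-0.17 ± 0.04) and Rybp (-0.30 ± 0.07).

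Of 30 tested genes of HP1 proteins and H3K9 methylation, 11 fell (36.7%) and 3 rose (10%), against 5.95% and 7.19% of all genes, with a median of -0.12. The count of 11 was 7 without replicate 1 of the HP1 fusion. Cbx1, which encodes HP1b, fell by 0.29 ± 0.06, and Cbx3, which encodes HP1g, differed by 0.09 ± 0.06 and did not pass. Trim28, the corepressor gene that recruits SETDB1, measured 2524, 2602 and 2765 CPM against 2997, 2999 and 2977 CPM and fell by 0.19 ± 0.03 (edgeR adjusted p = 1.99e-05). The H3K9 methyltransferase genes Setdb1 (-0.20 ± 0.05) and Ehmt1 (-0.20 ± 0.06) fell, Suv39h2 rose by 0.31 ± 0.10, and Suv39h1 differed by 0.00 ± 0.10. The demethylase genes Kdm3a (-0.19 ± 0.04), Kdm3b (-0.34 ± 0.06) and Kdm4a (-0.21 ± 0.06) fell. Atf7ip, a partner of SETDB1, rose by 0.35 ± 0.08. Atrx, a heterochromatin remodeller, fell by 0.32 ± 0.05 against the knockout and differed by 0.01 ± 0.05 from S12N.

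**Figure D4:**
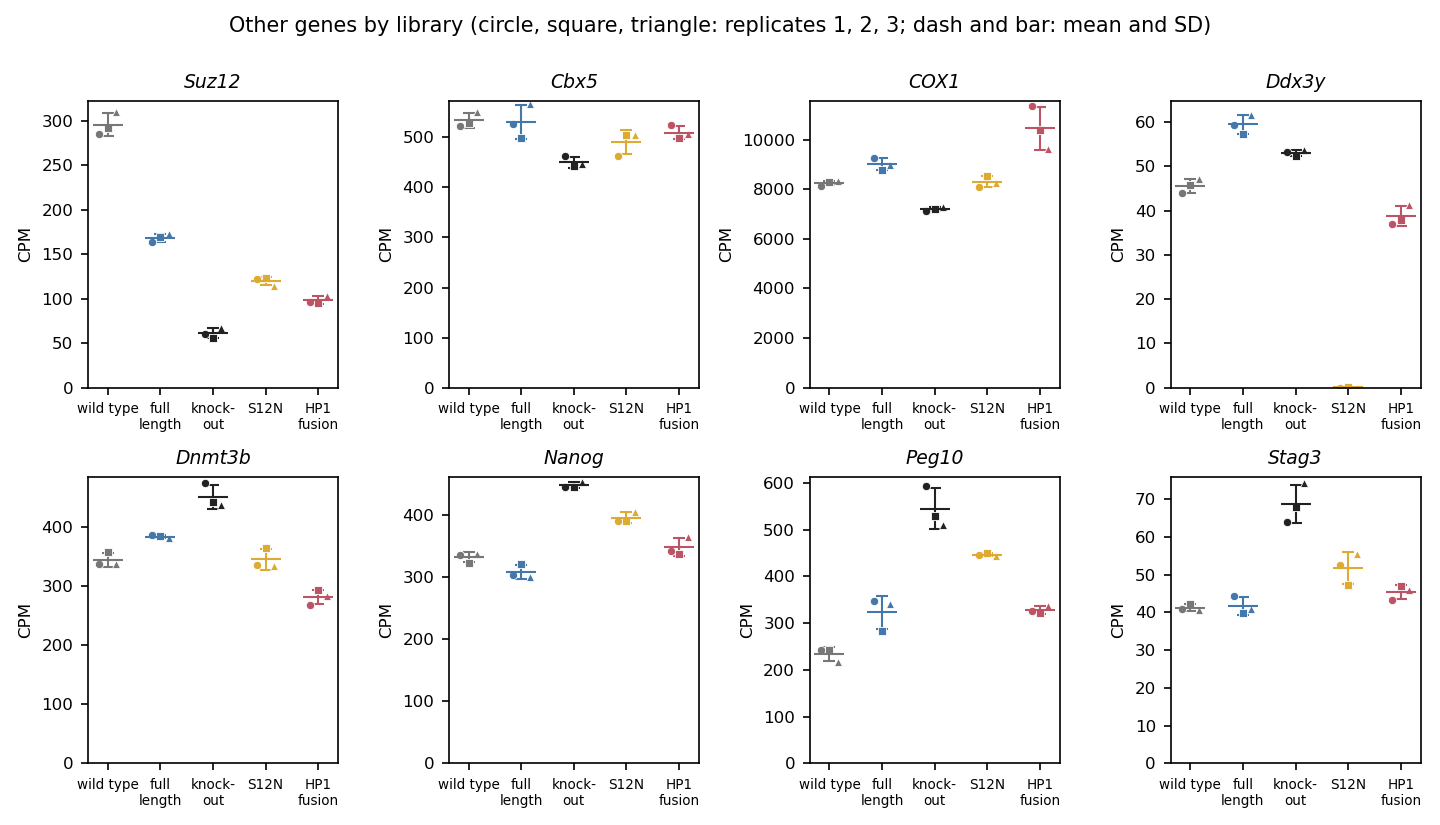
CPM of Suz12, Cbx5, COX1, Ddx3y, Dnmt3b, Nanog, Peg10 and Stag3 in the 15 libraries of the dataset, by line, with replicates 1, 2 and 3 as circle, square and triangle and the mean and SD (n = 3) as dash and bar. The HP1 fusion libraries lie above the knockout for Suz12, Cbx5 and COX1 and below it for Ddx3y, Dnmt3b, Nanog, Peg10 and Stag3, and S12N is at or near 0 for Ddx3y.

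Developmental transcription factors bound by PRC2 differed little as a class. Of 117 tested, 9 rose (7.69%) and 4 fell (3.42%), against 7.19% and 5.95% of all genes, with a median of 0.09. The 9 included 4 primitive endoderm factors described above, and without the list's 6 tested endoderm members 5 of the rest rose (4.5%). The count of 4 was 2 without replicate 1 of the knockout. Foxd1, a forkhead factor of kidney and forebrain, measured 39.5, 39.9 and 50.9 CPM in the HP1 fusion, 28.6, 34.4 and 28.6 CPM in the knockout and 44.1, 51.5 and 44.4 CPM in S12N. It rose by 0.49 ± 0.12 (edgeR adjusted p = 0.00322), with no call against S12N (-0.10 ± 0.11). Runx1, a blood factor, measured 5.73, 8.28 and 5.45 CPM against 4.08, 3.05 and 2.87 CPM and rose by 0.97 ± 0.29, and Lhx9, a LIM homeobox factor, fell from 3.10, 2.14 and 1.80 CPM to 0.512, 0.476 and 0.088 CPM. The remaining 83 of the 200 listed factors in the files were too low to test.

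Of 39 Hox genes 22 were tested, 1 rose and none fell, with a median of 0.01, where 7.19% of all genes were higher. Hoxc13 was the 1 that rose, at 11.8, 13.04 and 14.95 CPM against 7.04, 7.37 and 6.28 CPM (0.93 ± 0.26, edgeR adjusted p = 0.0105). Hoxa9 differed by -1.04 ± 0.54, Hoxd8 by -0.69 ± 0.36 and Hoxb4 by 1.01 ± 0.56, and none of them passed. Against S12N, Hoxd13 was lower, at 33.6, 27.7 and 32.5 CPM against 46.8, 39.4 and 43.7 CPM (-0.47 ± 0.12, edgeR adjusted p = 0.0064). Summed over the tested Hox genes, the HP1 fusion held 125 to 143 CPM, the knockout 128 to 135, wild type 3.60 to 5.05 and S12N 160.3 to 174.

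Signalling genes bound by PRC2 had 6 of 29 tested higher (7.19% of all genes) and none lower, with a median of 0.35. Besides Pdgfra these were Cdkn1c, Ptch1, Dkk1, Wnt5a and Bmp6. The knockout against wild type had 19 of the 29 higher (22.2% of all genes), Pdgfra and Dkk1 among them. It had 4 lower (19.6% of all genes), among them Cdkn1c (-0.55 ± 0.08) and Ptch1 (-0.94 ± 0.11). Cdkn1c, the gene of the cell-cycle inhibitor p57, measured 75.6, 79.1 and 75.5 CPM against 56.4, 61.7 and 62.5 CPM (0.35 ± 0.08, edgeR adjusted p = 0.00185). Dkk1, a secreted Wnt inhibitor, measured 5.02, 3.71 and 2.20 CPM against 1.55, 0.855 and 0.718 CPM. Its change of 1.82 ± 0.56 (edgeR adjusted p = 0.0216) lost its call in 4 of the 6 fits that left out 1 library, namely those without replicate 1 or 2 of the HP1 fusion or replicate 2 or 3 of the knockout. The Hedgehog receptor gene Ptch1 had overlapping groups and lost its call in 4 of those fits, without replicate 1 or 2 of either line. The cell-cycle inhibitor gene Cdkn2a differed by 0.00 ± 0.14 and did not pass.

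Genes defined by Suz12 knockouts in other datasets of the series were counted in the same way. The panel's knockout raised 1509 tested genes by at least 2-fold over wild type. Of these, 131 rose in the HP1 fusion (8.68%) and 65 fell (4.31%), with a median of 0.09. Over all genes tested, 7.19% rose and 5.95% fell. The 131 included 19 primitive endoderm genes, and without that list's 22 tested members 112 rose (7.53%). Of 252 tested genes that it lowered by as much, 45 rose (17.9%) and 6 fell (2.38%), with a median of 0.14. The knockout of the RBBP5 dataset with SD2 was also used in place of the panel's, a choice made after the values were seen. Of its 1889 higher genes 177 rose (9.37%) and 86 fell (4.55%). Of its 621 lower genes 98 rose (15.8%) and 18 fell (2.90%).

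Germline genes that H3K9 or DNA methylation silences were lower in part. Of 30 tested, 9 fell and none rose (5.95% of all genes were lower), with a median of -0.26. The count of 9 was 4 without replicate 1 of the knockout. The meiotic cohesin gene Stag3 measured 43.3, 46.9 and 45.8 CPM against 64.03, 67.8 and 74.2 CPM (-0.59 ± 0.09, edgeR adjusted p = 1.82e-06). Syce1, of the synaptonemal complex, measured 15.7, 14.5 and 16.01 CPM against 25.5, 23.99 and 26.04 CPM (-0.70 ± 0.14, edgeR adjusted p = 0.000313). The groups did not overlap in either gene. Piwil2, of the piRNA pathway, fell (-0.47 ± 0.10), and so did Dazl, a germ cell RNA-binding protein gene (-0.56 ± 0.15), and Rpl10l, a ribosomal protein gene that can share reads with Rpl10 (-0.41 ± 0.09). Against S12N there were 4 lower (2.72% of all genes) and 2 higher (4.26%) with a median of 0.02. S12N against the knockout had 4 of the 30 lower (1.12% of all genes). The 2 higher than S12N were Sohlh2 (0.43 ± 0.08) and Smc1b (1.12 ± 0.31). None of the 23 genes of the 2-cell state in the files reached the filter, and each had at most 9 counts over the HP1 fusion libraries and 38 over the knockout.

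Imprinted genes, which are expressed from one parental allele, had 4 of 30 higher (13.3%) and 2 lower (6.67%), against 7.19% and 5.95% of all genes. Peg10, which also marks trophoblast and lies on chromosome 6 from 4747306 to 4760517, measured 325, 322 and 337 CPM in the HP1 fusion, 446, 450.2 and 444 CPM in S12N and 594, 529.5 and 510.0 CPM in the knockout. It fell by 0.73 ± 0.05 against the knockout (edgeR adjusted p = 7.55e-14) and was lower than in S12N with a difference of -0.45 ± 0.05 (edgeR adjusted p = 8.59e-08). The 3 lines did not overlap. The growth factor gene Igf2 measured 32.04, 32.3 and 21.9 CPM against 55.9, 45.2 and 52.4 CPM (-0.82 ± 0.12, edgeR adjusted p = 2.44e-06) and differed by -0.21 ± 0.12 from S12N, which did not pass. Mest rose by 0.46 ± 0.06 and Meg3, a noncoding RNA gene, by 0.40 ± 0.08. Both were also higher than in S12N, by 0.38 ± 0.06 and 0.35 ± 0.07.

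Genes of the mitochondrial genome were higher in the HP1 fusion. Of 10 tested, 7 rose and none fell, where 7.19% of all genes were higher, with a median of 0.51. COX1, a subunit gene of cytochrome oxidase, measured 11356, 10410.5 and 9624 CPM against 7115, 7217 and 7282 CPM in the knockout (0.54 ± 0.03, edgeR adjusted p = 2.63e-16). CYTB, of complex III, rose by 0.52 ± 0.03, and ND5, of complex I, by 0.56 ± 0.04. All genes of the mitochondrial chromosome, including those outside the list, took 3.11%, 2.84% and 2.71% of the counts in the HP1 fusion libraries. In the knockout they took between 1.99% and 2.08%. Against S12N 7 of 10 were higher (4.26% of all genes), with COX1 at 0.33 ± 0.03. S12N against the knockout had 8 higher (0.77% of all genes).

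The 4 tested Y-linked genes fell, where 5.95% of all genes were lower. Ddx3y, an RNA helicase gene, measured 37.1, 37.99 and 41.3 CPM in the HP1 fusion and 53.2, 52.4 and 53.7 CPM in the knockout (-0.45 ± 0.09, edgeR adjusted p = 0.000588). Eif2s3y (-0.52 ± 0.11) and Uty (-0.57 ± 0.17) fell too, and Uba1y measured 0.614, 1.33 and 1.06 CPM against 3.80, 4.43 and 5.39 CPM (-2.15 ± 0.56). Each has an X-linked homologue that can share reads. S12N held 0, 0.097 and 0 CPM of Ddx3y and was at 0 in all libraries for Eif2s3y and Uty. The call for Uty was lost without replicate 2 of the HP1 fusion or replicate 1 of the knockout. Medians of chromosomes 1 to 19 and X lay between -0.02 and 0.03.

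Genes of cholesterol synthesis and uptake had 9 of 22 higher (7.19% of all genes) and none lower, with a median of 0.27. Insig1, which encodes a sterol-dependent brake on the pathway, measured 108, 108 and 101 CPM against 70.6, 75.4 and 68.8 CPM (0.55 ± 0.08, edgeR adjusted p = 8.13e-07). Dhcr7, of the last step of synthesis, measured 85.8, 79.7 and 71.2 CPM against 41.2, 54.2 and 57.1 CPM (0.63 ± 0.10, edgeR adjusted p = 1.15e-05). The groups did not overlap in either. Srebf2, the transcription factor gene of the pathway, rose by 0.33 ± 0.06. Of 21 tested collagen genes, a family added after values were seen, 7 rose (33.3%, against 7.19% of all genes) and none fell. Apart from Col4a1 and Col4a2 these were Col18a1, Col27a1, Col2a1, Col8a2 and Col5a3, with Col27a1 at 1.27 ± 0.22 and Col18a1 at 0.34 ± 0.05.

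Stress-response genes moved in both directions, with 3 of 20 higher (7.19% of all genes) and 4 lower (5.95%). Hspa5, the chaperone gene of the endoplasmic reticulum, measured 1064, 1053 and 806 CPM against 647, 689 and 708 CPM and rose by 0.52 ± 0.05 (edgeR adjusted p = 1.28e-09). Nqo1, an oxidative stress gene, rose by 0.49 ± 0.11 and Sesn2 by 0.27 ± 0.07. The 4 that fell were Atf4, the amino acid response factor, and its targets Chac1, Asns and Mthfd2. Atf4 measured 107, 108 and 129 CPM against 139.9, 143 and 139 CPM and 168, 158 and 168 CPM in S12N, and its log2 fold change against the knockout was -0.29 ± 0.06 (edgeR adjusted p = 0.000931). The changes were -0.93 ± 0.19 for Chac1, -0.16 ± 0.05 for Asns and -0.32 ± 0.09 for Mthfd2. All 4 were also lower than in S12N, with differences of -0.52 ± 0.06 for Atf4 and -0.81 ± 0.18 for Chac1.

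Markers of other lineages had few called members each. Of 13 mesoderm genes 3 rose (23.1%, against 7.19% of all genes) and 1 fell (7.69%, against 5.95%), and the 3 belong to Nodal signalling. Lefty1, a Nodal inhibitor, measured 239, 233 and 203 CPM against 105, 120.2 and 129.6 CPM and rose by 0.93 ± 0.08 (edgeR adjusted p = 2.17e-12). Lefty2 and Nodal rose by 0.34 ± 0.06 and 0.31 ± 0.08, and Evx1 fell by 0.61 ± 0.15. T and Mixl1 were among the 7 mesoderm genes too low to test. Of 12 neural genes 2 rose (16.7%), Tubb3 by 0.34 ± 0.07 and Sox1 by 0.63 ± 0.17, and Nefl fell by 0.44 ± 0.10. None of these 3 was called against S12N. Of 13 trophoblast genes Krt8 rose by 0.34 ± 0.09 and Peg10 fell, and of 7 fibroblast genes none was called. Among 11 alternative fits, with other settings or 1 library left out, the call was lost for Krt8 in 2 and for Sox1 in 1.

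Several further lists held few calls, where 7.19% of all genes were higher and 5.95% lower. Of 40 ribosomal protein genes Rpl10 fell (-0.15 ± 0.04) and none rose. Of 14 interferon-stimulated genes Ddx58, which encodes the RNA sensor RIG-I, fell (-0.38 ± 0.09). Of 26 genes of glycolysis and hypoxia 4 rose (15.4%) and 1 fell (3.85%), with Ero1a at 0.34 ± 0.08 and Pfkp at -0.19 ± 0.05. The call for Ero1a was lost in 1 of 11 alternative fits. Of 333 zinc finger genes of the Zfp family 8 rose (2.4%) and 19 fell (5.71%, near the share of all genes). Zfp365 was at 0.85 ± 0.13 and Zfp428 at -0.49 ± 0.07. Of 19 clustered protocadherins, whose isoforms share 3′ exons and so may share reads, Pcdhga2 and Pcdhgb4 passed from low counts, and both calls were lost without replicate 2 of either line.

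**Figure D5:**
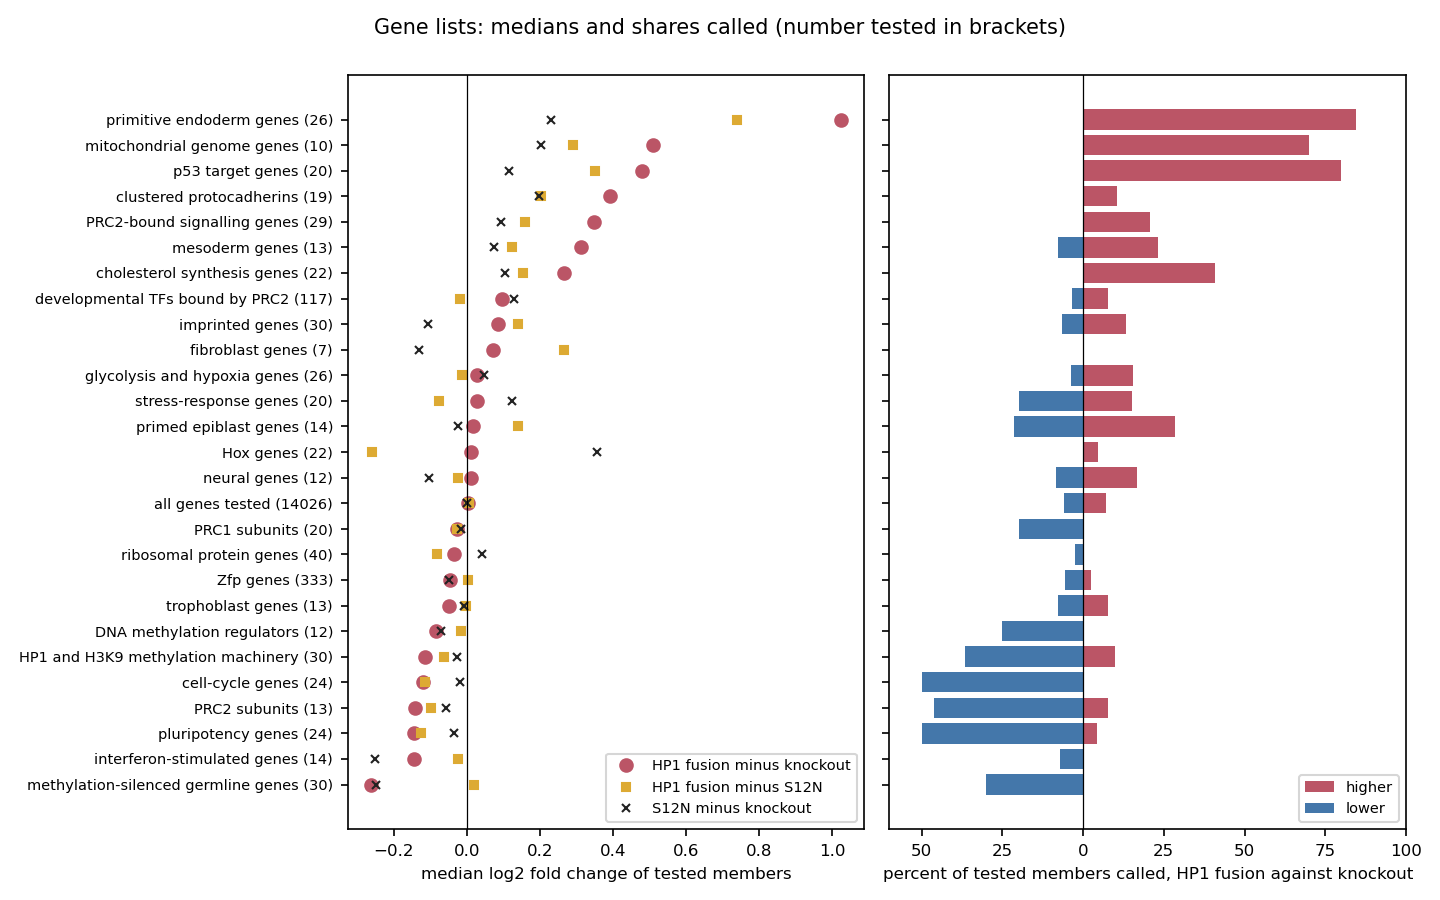
Left, median log2 fold change of the tested members of each gene list for HP1 fusion minus knockout, HP1 fusion minus S12N and S12N minus knockout. Right, percent of tested members called higher or lower in the HP1 fusion against the knockout. The primitive endoderm list has the highest median (1.02, with 22 of 26 called higher), followed by the mitochondrial genome (0.51, 7 of 10 called higher) and the p53 targets (0.48, 16 of 20), while 12 of 24 pluripotency and 12 of 24 cell-cycle genes were called lower.

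Among genes averaging 1 or more in log2 CPM and without overlap between the groups, the 12 largest single rises included Pth1r, Srgn and Amn of the primitive endoderm list. Hkdc1, a hexokinase family gene, measured 6.24, 7.71 and 4.93 CPM against 1.83, 1.34 and 2.51 CPM (1.82 ± 0.39, edgeR adjusted p = 0.000932). Bmper, a secreted BMP modulator, measured 14.3, 13.6 and 7.74 CPM against 1.27, 4.33 and 5.03 CPM (1.72 ± 0.33, edgeR adjusted p = 0.000189). Syt13, a synaptotagmin gene, measured 12.3, 11.9 and 11.2 CPM against 3.38, 4.54 and 4.67 CPM (1.48 ± 0.25, edgeR adjusted p = 2.62e-05). Bmper, Syt13, Itpkb (1.00 ± 0.25) and Napsa (1.05 ± 0.19) were also higher than in S12N, while Hkdc1 differed by 0.74 ± 0.34 from S12N and did not pass. Stra6, the retinol transporter gene, Nog and Wnt11 rose by 1.59 ± 0.40, 1.49 ± 0.36 and 1.48 ± 0.31, and Aldh3a1, an aldehyde dehydrogenase gene, by 1.64 ± 0.46. The call was lost for Stra6 without replicate 1 of the HP1 fusion or replicate 2 of the knockout, and for Aldh3a1 without replicate 3 of the knockout. Napsa, an aspartic protease gene, had a different order of levels from Hkdc1, at 32.7, 31.6 and 32.8 CPM in wild type, 2.96, 2.40 and 1.80 CPM in the knockout and 8.29, 6.00 and 8.18 CPM in the HP1 fusion, whereas Hkdc1 had no counts in the 3 wild-type libraries.

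The 12 largest falls under the same limits leave out less abundant genes that fell further, such as Lhx9 above. Magohb, a core gene of the exon junction complex on chromosome 6 from 131284389 to 131293244, measured 6.86, 5.24 and 6.51 CPM against 20.5, 16.2 and 12.4 CPM (-1.41 ± 0.23, edgeR adjusted p = 1.63e-05). S12N held 7.66, 6.21 and 6.36 CPM, and the difference of the HP1 fusion from it was -0.13 ± 0.23, which did not pass. Ly6a, the gene of the surface antigen Sca-1, measured 9.83, 10.1 and 7.21 CPM against 22.5, 18.8 and 18.3 CPM (-1.14 ± 0.20, edgeR adjusted p = 8.41e-05) and was lower than in S12N (-1.05 ± 0.20). Cited4, a transcriptional coactivator gene, measured 3.28, 4.48 and 4.84 CPM against 9.99, 11.1 and 8.26 CPM (-1.23 ± 0.25, edgeR adjusted p = 0.000588), and it too was lower than in S12N (-0.96 ± 0.25). Tmcc3 fell (-1.15 ± 0.22), as did Dmgdh, the gene of dimethylglycine dehydrogenase (-1.21 ± 0.31). The rule that chose these genes required groups that do not overlap.

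The other 7 of these 12 falls lost their call when a library was left out or another setting was used. They include Shoc1, a meiotic crossover gene (-1.40 ± 0.44), Nupr1 (-1.16 ± 0.36), Nr2c2ap (-1.06 ± 0.33), Gcnt3 (-1.18 ± 0.39), Efcab11 (-1.16 ± 0.41) and Rhox13 (-1.28 ± 0.41). Mroh6 had 18 counts over the HP1 fusion and 55 over the knockout, a difference of -1.64 with a 95% counting interval from -2.48 to -0.83. Over all alternatives the adjusted p of these 7 reached between 0.14 and 0.20. Rhox13 belongs to the X-linked Rhox cluster, a family added after values were seen. Of its 5 tested genes 3 fell, where 5.95% of all genes were lower.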

How the data were processed

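RNA-seq was read in 15 libraries of the HP1 dataset, 3 per group, with groups taken from the titles. The deposited values are raw read counts per gene, used as given. Per the submitters' processing notes, reads were trimmed with Trimmomatic and aligned with HISAT2 to mm10, and the counting tool is not given in the sources used here. Libraries were poly(A) selected and sequenced paired-end, per the labels' protocols. A gene that shares sequence with a copy can share its reads.

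Counts were fitted with edgeR 4.0.16 in R 4.3.3 (TMM scaling, filterByExpr, group means of all 15 libraries, quasi-likelihood F test, Benjamini-Hochberg adjustment over 14026 genes, two-sided, threshold 0.05). CPM used the TMM library sizes. The standard error is the size of the unshrunk log2 fold change divided by the square root of F. DESeq2 1.42.0 was an alternative, with other size factors, no filter, 6 libraries, a replicate block and each library left out. The fit was checked on simulated counts. The panel's lists came from its own edgeR fit of the deposited counts, whose columns were matched to groups from their wording. Those counts were made with STAR 2.4 and HTSeq 0.9.1, per the submitters' processing notes.

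Members and lists were chosen with earlier results of these data known. Genes named by rule were Suz12, Cbx5, Ezh2 and Eed, the 12 largest rises and 12 largest falls past the threshold (mean log2 CPM of at least 1, groups not overlapping, no predicted genes), and in every list the 4 members at most that had the lowest p. Further members were named after their values were seen, to describe their list. Symbols, coordinates and promoter windows are from RefSeq, GRCm38.p6, and 25275 of 27179 identifiers matched a symbol. Some members of the lists are not reported here by name.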

Additional observations from a re-analysis of the deposited data

How the results depend on the processing

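The 1843 genes called against the knockout became 1841 with DESeq2's size factors in edgeR, 1795 without the filter on low counts, 1536 with 6 libraries in the fit and 1840 with DESeq2, which shared 1769 genes with edgeR. With the replicate block 1823 were called, and 941 against S12N. Same-numbered libraries did not deviate together (correlations of -0.00936 to 0.0212), so the numbers were not taken as pairs. Leaving out 1 library gave 1149 to 2132 genes against the knockout (620 to 1233 higher, 519 to 899 lower) and 430 to 1492 against S12N (252 to 934 higher, 178 to 558 lower). For members that fell, the same ranges were 6 to 13 for the cell-cycle genes, 7 to 13 for the HP1 and H3K9 methylation genes, 4 to 9 for the germline genes and 2 to 5 for the developmental transcription factors. The lowest were reached without replicate 1 of the HP1 fusion or of the knockout, and such fits test with fewer samples. Of 112 named genes called, 89 were called under every alternative run. Ifi35, an interferon-stimulated gene that did not pass, ranged from -0.75 to 0.26 and was positive without replicate 2 of the knockout. The cause was not tested. With 3 libraries a group and 1 line per construct, the p-values measure the spread between cultures of these lines only.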
